A study of Mus musculus with 19 samples.

Results

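The chemokines of the aortic wall are described here as 10 transcripts, namely Ccl2, Ccl7, Ccl8, Ccl11, Cxcl1, Cxcl9, Cxcl10, Cxcl12, Cxcl16 and Cx3cl1. They were taken by gene symbol from a matrix of 20408 genes measured in the suprarenal abdominal aorta (SRA) of 19 mice, and each symbol matched 1 gene. All mice were male, lacked ApoE, which makes them hypercholesterolemic, and carried SMA-CreERT2, a tamoxifen-inducible Cre recombinase under a smooth muscle actin promoter. Mice were used at 8 weeks of age on a chow diet, and tamoxifen was given to both genotypes. Ikbkb was thereby deleted from vascular smooth muscle cells in mice with floxed alleles (SMA-CreERT2 Ikkβ Flox/Flox ApoE-/-, labelled KO and called IKKβ-/-) and was intact in mice without them (labelled wild-type and called IKKβ+/+). Each mouse then received saline or angiotensin II (Ang II), a vasoactive peptide, from an osmotic pump for 24 h. The dose was given in the labels as 500 to 1000 ng/min/kg, and the methods of the study give 1000 ng/min/kg for the sequenced mice. There were 5 IKKβ+/+ mice with Ang II and 5 with saline, and 5 IKKβ-/- mice with Ang II and 4 with saline. The questions asked of the chemokines were whether they changed with Ang II before an aneurysm forms, and whether a change depended on IKKβ in smooth muscle cells.

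Chemokines are small secreted proteins that direct the migration of leukocytes through receptors on the surface of these cells. CC chemokines such as Ccl2 and Ccl7 recruit monocytes, CXC chemokines recruit neutrophils or T cells depending on the member, and Cxcl16 and Cx3cl1 are anchored in the membrane of the cells that make them until they are shed. In the vessel wall they are produced by smooth muscle cells, endothelial cells, fibroblasts and macrophages. Several of their genes are known targets of NF-κB, the transcription factor that IKKβ releases from its inhibitor.

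Each mouse had 11382573 to 19906694 reads assigned to genes, which leaves the rarest chemokines with a few reads in a mouse. The values are DESeq2-normalized counts, the reads of a gene divided by the size factor of the mouse. Smooth muscle markers were abundant in every mouse, with Myh11, the smooth muscle myosin heavy chain, between 61000 and 167445 normalized counts. Ikbkb, the deleted gene, lay between 430.2 and 672 normalized counts in the 9 IKKβ-/- mice and between 594 and 791 in the 10 IKKβ+/+ mice, so the genotypes overlapped in whole tissue that also holds cells outside the reach of the Cre. The IKKβ-/- mice X2385 and X2406 stood apart, with 39.2% and 43.9% of their reads on their 10 most abundant genes, against 11.8% to 28.3% in the other mice. In the IKKβ+/+ mice X2356 and X2350, both Ang II-treated, Dbh of adrenal medulla and sympathetic neurons was at 1674 and 214 normalized counts, against at most 21.3 in any other mouse. Every group had mouse numbers of its own and the labels name no batch, hence group and batch cannot be told apart. In whole aorta, fewer cells of a type and less RNA per cell cannot be told apart either.

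Cxcl12, the ligand of Cxcr4 and Ackr3 that retains hematopoietic cells in their niches, was the most abundant of the 10 chemokine transcripts in the SRA. Chemokines outside the 10 were not ranked. Levels were compared between genes as normalized counts per kilobase of the longest coding transcript, averaged over the 19 mice. Cxcl12 reached 450.6 ± 92.9 (SD, n = 19) and took between 29.7% and 56.2% of the summed level of the 10 chemokines in a mouse. Ccl8 followed at 228 ± 224, Cxcl16 at 137 ± 30.8, Ccl11 at 129.9 ± 54.3 and Cx3cl1 at 104 ± 25.5 on the same scale. Ccl7 was at 58.2 ± 50.7, Ccl2 at 51.0 ± 62.2 and Cxcl1 at 36.9 ± 28.0. The T cell chemokines Cxcl10 and Cxcl9 closed the order at 6.97 ± 7.90 and 3.91 ± 5.96.

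Every pair of neighbours in that order had overlapping ranges over the 19 mice. Cxcl12 was above Ccl8 in 17 mice, and Cxcl1 was above Cxcl10 in all 19 although the ranges over mice overlapped. Cxcl16 and Ccl11 traded places, with Cxcl16 above in 10 of 19 mice, and Cxcl10 was above Cxcl9 in 11. The share of Ccl8 in the summed chemokine level of a mouse ranged from 4.76% to 45.4%.

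**Figure D1:**
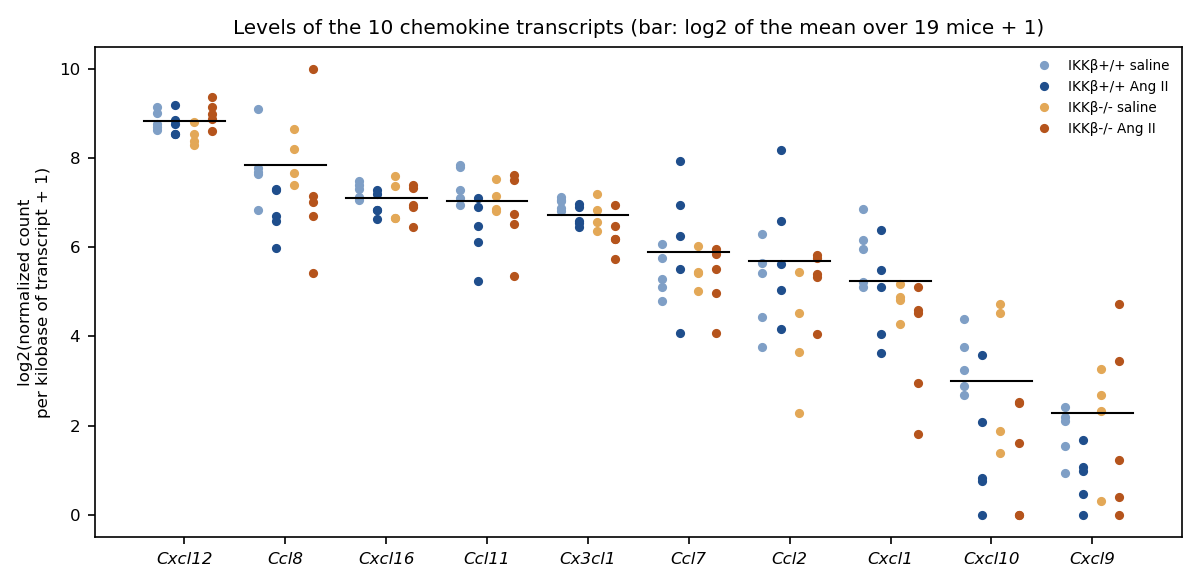
Level of each chemokine transcript in each of the 19 mice, on the y axis as log2 of normalized counts per kilobase of transcript plus 1, with genes on the x axis ordered by mean level, points coloured by group and bars for the mean over all mice. Cxcl12 sits highest at a mean of 450.6 per kilobase, and Cxcl10 and Cxcl9 lie lowest, with mice at 0.

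A chemokine was called changed at an adjusted p under 0.1 (limma on log2 of the normalized count plus 1, Benjamini-Hochberg over the 14845 genes tested) and a fold change above 1.2. All 10 passed the filter on low values, which asked for 10 normalized counts in at least 4 mice. Cxcl10 passed it mainly through saline-infused mice. It reached 10 in 3 IKKβ+/+ and 2 IKKβ-/- mice with saline, against 1 and 0 with Ang II. Within IKKβ+/+ mice none of the 10 was called with Ang II, where 8.66% of all genes tested were. Within IKKβ-/- mice none was called either, where the share over all genes was 5.29%. Ang II and saline groups overlapped for all 10 in both genotypes, whereas 8.42% of all genes tested were without overlap in IKKβ+/+ mice and 5.29% in IKKβ-/- mice. At an unadjusted p under 0.05, 2 chemokines differed in IKKβ+/+ mice (20.3% of all genes did) and 3 in IKKβ-/- mice (17.8% of all genes).

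When the Ang II effects of both genotypes were averaged in the same fit, Cxcl10 and Cx3cl1 fell, so 2 of the 10 chemokines were called lower against 7.05% of all genes tested. In either direction 12.7% of all genes were called in this average. None of the 10 rose, against 5.66% of all genes, and 5 reached an unadjusted p under 0.05, against 24.7% of all genes. The estimate lay below 0 for 7 of the 10, against 49.2% of all genes, and the median log2 fold change of the 10 was -0.52, against 0.01 over all genes. In IKKβ+/+ mice 8 of the 10 estimates were below 0 (49.3% of all genes) with a median of -0.63, and in IKKβ-/- mice 8 of the 10 (50.4%) with a median of -0.39.

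**Figure D2:**
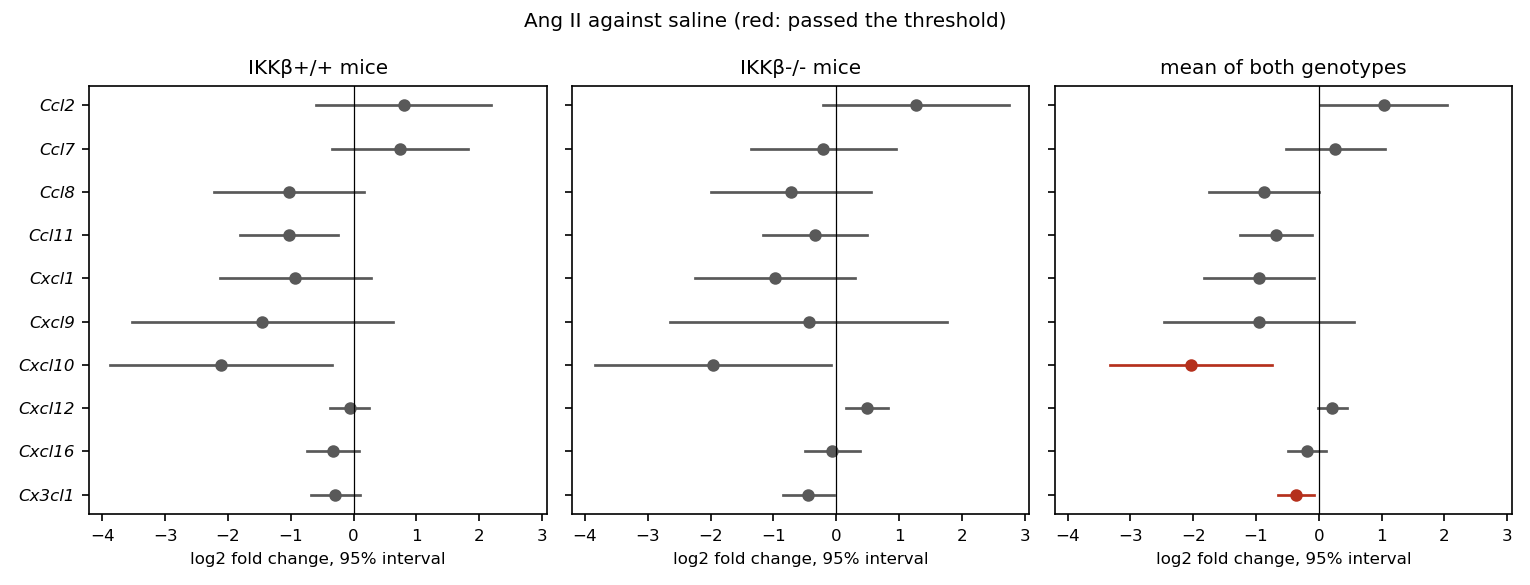
Log2 fold change of each chemokine with Ang II against saline on the x axis, with its 95% interval as a line, in IKKβ+/+ mice, in IKKβ-/- mice and as the mean of both genotypes. Red marks the 2 that passed the threshold in the averaged effect, Cxcl10 at -2.03 and Cx3cl1 at -0.37, and most other intervals include 0.

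Cxcl10 and Cxcl9 are interferon-inducible ligands of Cxcr3, the receptor that guides activated T cells and NK cells into tissue. Their genes are neighbours on chromosome 5 (GRCm38), Cxcl9 (ENSMUSG00000029417.9) at 92321347 to 92328079 and Cxcl10 (ENSMUSG00000034855.13) at 92346638 to 92348889. Cxcl1 (ENSMUSG00000029380.11), a ligand of Cxcr2 that recruits neutrophils, lies on the same chromosome at 90891241 to 90893115. The 250 bases before the RefSeq start were read from promoter windows of GRCm38.p6, which held 6 of the 10 chemokines. The RefSeq start can differ from the gene start given here, and the Cxcl1 window ends just past the latter. These 3 are shown because Cxcl10 carries the largest fall with Ang II, Cxcl9 is its neighbour and shares its receptor, and Cxcl1 had the largest estimate between genotypes averaged over the treatments. Capitals mark matches to the NF-κB motif (κB) and to the interferon-stimulated response element TTTCNNTTTC (ISRE), each searched on both strands.
Cxcl10, chr5:92348890-92349139, minus strand: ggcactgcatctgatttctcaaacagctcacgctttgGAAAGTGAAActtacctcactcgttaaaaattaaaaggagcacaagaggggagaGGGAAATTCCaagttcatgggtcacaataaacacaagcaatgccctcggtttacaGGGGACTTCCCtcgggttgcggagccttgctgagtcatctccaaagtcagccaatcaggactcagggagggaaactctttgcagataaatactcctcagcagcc
Cxcl9, chr5:92328080-92328329, minus strand: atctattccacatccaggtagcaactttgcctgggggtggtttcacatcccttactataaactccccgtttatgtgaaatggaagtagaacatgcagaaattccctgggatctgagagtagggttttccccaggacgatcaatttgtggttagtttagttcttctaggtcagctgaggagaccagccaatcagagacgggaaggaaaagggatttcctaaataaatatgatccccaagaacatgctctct
Cxcl1, chr5:90890995-90891244, plus strand: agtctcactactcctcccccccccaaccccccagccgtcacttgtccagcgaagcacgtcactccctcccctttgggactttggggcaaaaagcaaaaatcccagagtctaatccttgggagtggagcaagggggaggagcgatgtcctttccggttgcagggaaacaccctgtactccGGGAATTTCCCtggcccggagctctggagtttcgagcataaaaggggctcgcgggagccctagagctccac

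The Cxcl10 window held 3 κB matches, of which 2 overlap at 104 to 94 bases before the start, and the other lies at 159 to 150 bases. It also held 1 ISRE match, at 213 to 204 bases before the start. The Cxcl1 window held 2 overlapping κB matches at 71 to 61 bases before the start, and the Cxcl9 window held no match to either motif. The windows of Ccl8 and Cxcl12 held none, and neither did that of Cx3cl1 (94771930 to 94772179), much of which lies inside the gene as annotated in the matrix. No window of the 6 matched the gamma-activated sequence TTCNNNGAA. Of the 32851 promoter windows of the same length, 7.25% held a κB match, 2.98% an ISRE match and 7.02% a TTCNNNGAA match. These are matches of letters and do not show that a factor binds there.

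Cxcl10 fell with Ang II when both genotypes were averaged, and its estimate was the largest among the 10 chemokines. In IKKβ+/+ mice it was at 0, 0.955, 1.07, 4.39 and 14.9 normalized counts with Ang II and at 7.32, 8.73, 11.5, 17.1 and 27.1 with saline. Of the Ang II-treated mice, 4 of 5 lay below every saline-infused mouse, and X2352 at 14.9 lay within their range. The IKKβ-/- mice had 0, 0, 2.77, 6.34 and 6.42 with Ang II and 2.18, 3.6, 29.9 and 34.8 with saline. The saline-infused IKKβ-/- mice split, with X2401 and X2403 high and X2406 and X2409 inside the range of the Ang II-treated mice.

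The log2 fold change of Cxcl10 averaged over the genotypes was -2.03 (SE 0.618, 95% interval -3.32 to -0.74, limma adjusted p = 0.0446), a level 4.09-fold lower on this scale. It was -2.11 in IKKβ+/+ mice (limma adjusted p = 0.162) and -1.96 in IKKβ-/- mice (limma adjusted p = 0.260), neither past the threshold alone. The change in IKKβ+/+ mice passed when only the groups compared were fitted (limma adjusted p = 0.0857) and without X2352 (limma adjusted p = 0.0761). These values rest on few reads, 33 in all over the 10 Ang II-treated mice and 156 over the 9 saline-infused mice. Among the Ang II-treated mice 6 had at most 3 reads, and 3 reads are also what a count of 0 allows. The fold depended on the pseudocount, at -1.29 on the log2 scale with a pseudocount of 4 (limma adjusted p = 0.0457). Without X2401 the averaged change was -1.79 (limma adjusted p = 0.103) and no longer passed.

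Cxcl9 was at 0, 1.10, 2.87, 3.21 and 6.40 normalized counts in Ang II-treated IKKβ+/+ mice and at 2.64, 5.56, 9.49, 10.4 and 12.6 in saline-infused ones. Among IKKβ-/- mice the values were 0, 0.924, 3.86, 28.5 and 73.9 with Ang II and 0.726, 11.6, 15.8 and 25.2 with saline. The IKKβ+/+ groups overlapped, and the 2 highest values of the gene came from the Ang II-treated IKKβ-/- mice X2385 and X2384. The log2 fold change with Ang II was -1.45 (95% interval -3.53 to 0.62) in IKKβ+/+ mice and -0.44 (95% interval -2.64 to 1.76) in IKKβ-/- mice. The reads of Cxcl9 in all mice summed to 184, and intervals this wide hold large changes in either direction.

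Cells that carry Cxcr3 were scarce in the libraries. Cxcr3 itself was at 0 to 16.2 normalized counts and was too low to be tested. Cd3e, which defines T cells, reached at most 6.65. Ifng had no usable row in the matrix. Of 12 T and NK cell markers 4 were tested, and their summed level over the whole list was 192 to 301 normalized counts with Ang II and 237 to 372 with saline in IKKβ+/+ mice, and 130.1 to 230.3 and 148 to 237 in IKKβ-/- mice. Most of that sum was Thy1, which other cells also express and which lay between 84.1 and 318 normalized counts. No marker of the list was called with Ang II. Their part in the Cxcl10 result was not tested.

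In the list of interferon-gamma signalling and its targets, 4 of the 10 genes tested fell with Ang II in IKKβ+/+ mice and none rose, where 8.66% of all genes tested were called in either direction. They were Ifngr2, a chain of the interferon-gamma receptor (log2 fold change -0.38, limma adjusted p = 0.042), the transcription factor Irf1 (-1.05, adjusted p = 0.00663 from limma), Ciita, which drives MHC class II genes (-1.47, adjusted p = 0.0683 from limma), and the GTPase Gbp2 (-0.55, adjusted p = 0.0375 from limma). Irf1 stood at 531 ± 74.0 (SD, n = 5) normalized counts with saline and at 261 ± 69.5 (SD, n = 5) with Ang II. Among IKKβ-/- mice, where 5.29% of all genes were called, 2 of the 10 fell, Ifngr2 at -0.35 (limma adjusted p = 0.0855) and Ciita at -1.51 (limma adjusted p = 0.0977). Irf1 was at -0.11 there (limma adjusted p = 0.835), and its difference between genotypes of 0.94 did not pass (limma adjusted p = 0.269).

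Cx3cl1 (ENSMUSG00000031778.13, chromosome 8, 94772009 to 94782427), a membrane-bound chemokine of endothelial cells that captures monocytes carrying Cx3cr1, fell modestly in the averaged Ang II effect. In IKKβ+/+ mice it was at 288, 305, 313, 395 and 409.5 normalized counts with Ang II and at 367, 386, 429, 439 and 462 with saline. For IKKβ-/- mice the values were 172, 236, 239, 293 and 403 with Ang II and 271, 312, 376 and 478 with saline. In IKKβ+/+ mice 3 of 5 and in IKKβ-/- mice 3 of 5 Ang II-treated mice lay below every saline-infused mouse of their genotype, and both pairs of groups overlapped.

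The averaged log2 fold change of Cx3cl1 was -0.37 (SE 0.136, 95% interval -0.65 to -0.08, limma adjusted p = 0.097), a level 1.29-fold lower. It was -0.29 in IKKβ+/+ mice (limma adjusted p = 0.394) and -0.44 in IKKβ-/- mice (limma adjusted p = 0.248), where it passed without X2380 (-0.60, limma adjusted p = 0.0649). The call lay at the edge of the threshold and was lost in 14 of the 19 fits that left out a single mouse, without the filter on low values (limma adjusted p = 0.115), and with the edgeR quasi-likelihood test (adjusted p = 0.116). Without X2385 and X2406 together the change was -0.38 (limma adjusted p = 0.143).

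Endothelial markers moved with treatment as well. Their summed level over 6 genes was 7139 to 24696 normalized counts in the 10 Ang II-treated mice and 12305 to 35436 in the 9 saline-infused mice. In the averaged effect Tek and Tie1, receptors of the angiopoietin system, were called lower at log2 fold changes of -0.73 and -0.58 (limma adjusted p = 0.0237 and 0.0926). Kdr, a receptor of vascular endothelial growth factor, was called higher at 1.05 (limma adjusted p = 0.09995), and Pecam1, Cdh5 and Vwf were not called. Every marker of the list was above 0 in every mouse. The part of the endothelial cells in the Cx3cl1 result was not tested.

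Adam10 and Adam17, the proteases that shed Cx3cl1 and Cxcl16 from the cell surface, were called lower with Ang II in IKKβ+/+ mice, at log2 fold changes of -0.50 and -0.38 (limma adjusted p = 0.0214 and 0.0678). Of the 10 genes for chemokine processing and presentation tested, 3 fell and 1 rose there, against 8.66% of all genes called in either direction. The third fall was that of Sdc1, a heparan sulfate proteoglycan, at -0.66 (limma adjusted p = 0.00721), and the rise was that of Sdc4, of the same family, at 0.78 (limma adjusted p = 0.0836). With IKKβ deleted, Sdc1 fell by 0.62 on the log2 scale (limma adjusted p = 0.0167) and Adam10 and Adam17 were at -0.12 and 0.14 (limma adjusted p = 0.684 and 0.617). The differences between genotypes of 0.39 for Adam10 and 0.52 for Adam17 did not pass (limma adjusted p = 0.419 and 0.295). With saline, Adam17 was lower in IKKβ-/- than in IKKβ+/+ mice (-0.54, limma adjusted p = 0.0475).

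Cxcl16 (ENSMUSG00000018920.11, chromosome 11, 70453983 to 70459984), the other membrane-bound chemokine and a scavenger receptor for oxidized lipoprotein, had the smallest spread after Cxcl12 relative to its mean, with a coefficient of variation of 22.4% over the 19 mice. It lay between 266 and 416 normalized counts with Ang II and between 359 and 483 with saline in IKKβ+/+ mice, and between 234 and 448 and between 268 and 516 in IKKβ-/- mice. Its averaged log2 fold change with Ang II was -0.19 (95% interval -0.50 to 0.11, limma adjusted p = 0.436), an interval that leaves room for a fall of 0.50 and a rise of 0.11 on the log2 scale. Its receptor Cxcr6 stayed at or below 7.32 normalized counts and was not tested.

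**Figure D3:**
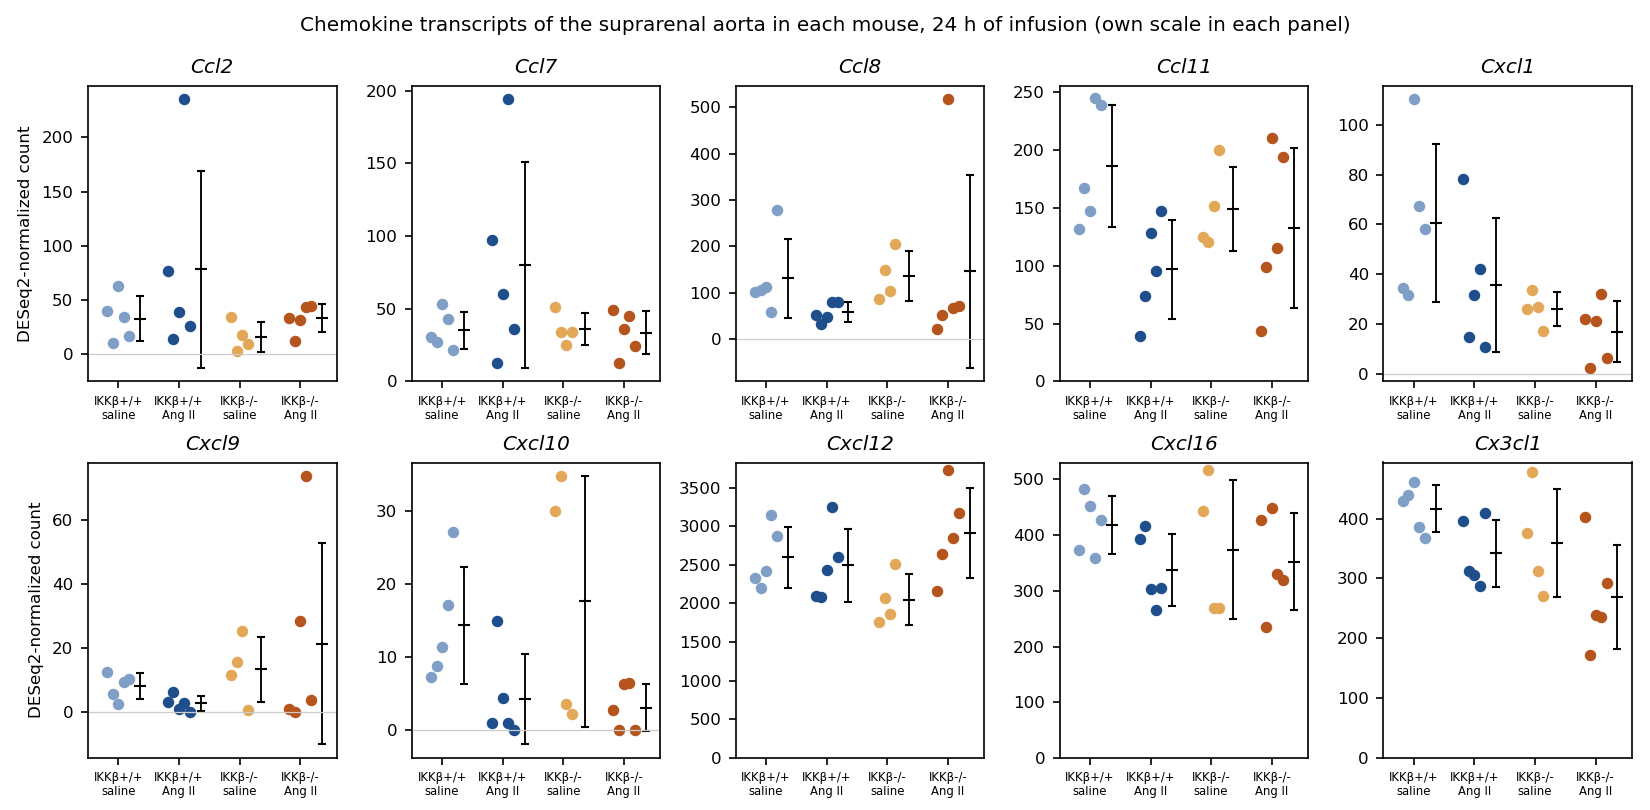
DESeq2-normalized counts on the y axis, on a scale of its own in each panel, for the 10 chemokines in each mouse by group on the x axis, with the mean and SD of the group as a bar beside the points. The groups overlap in every panel, and single mice such as the one at 516.7 for Ccl8 and the one at 235 for Ccl2 set the spread of their groups.

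Ccl2, Ccl7, Ccl8 and Ccl11 are CC chemokines encoded in a cluster on chromosome 11 (GRCm38), from Ccl2 (ENSMUSG00000035385.5) at 82035571 to 82037453 through Ccl7 (ENSMUSG00000035373.2) at 82045712 to 82047525 and Ccl11 (ENSMUSG00000020676.2) at 82057823 to 82062955 to Ccl8 (ENSMUSG00000009185.2) at 82115185 to 82116799. Ccl2 and Ccl7 recruit monocytes through Ccr2, Ccl8 belongs to the same subfamily, and Ccl11 is an eosinophil attractant that signals through Ccr3. None of the 4 was called in any comparison. They did not move as a block, since with Ang II the averaged estimates of Ccl2 and Ccl7 were above 0 and those of Ccl8 and Ccl11 below 0.

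Ccl2 was at 13.9, 25.8, 39.5, 77.1 and 235 normalized counts in Ang II-treated and at 10.3, 16.7, 34.2, 39.9 and 63.4 in saline-infused IKKβ+/+ mice. The values in IKKβ-/- mice were 12.7, 31.7, 33.3, 43.4 and 45.0 with Ang II and 3.16, 9.43, 18.0 and 34.7 with saline. The groups overlapped in both genotypes, and the highest value came from X2358. The averaged log2 fold change was 1.03 (95% interval 0.02 to 2.05, limma adjusted p = 0.193), and it passed the threshold with DESeq2 (1.14, adjusted p = 0.0943). In IKKβ+/+ mice the change was 0.80 (limma adjusted p = 0.535) and 0.24 without X2358. Of 7 monocyte markers Chil3 was called higher with Ang II in IKKβ+/+ mice (3.03, limma adjusted p = 0.0498) and Plac8 in IKKβ-/- mice (1.66, limma adjusted p = 0.0308), and the part of monocytes in the Ccl2 values was not tested.

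Ccl7 had its highest value, 194 normalized counts, in the same mouse X2358, and its lowest, 12.7, in the Ang II-treated IKKβ-/- mouse X2383. The saline-infused mice stayed between 21.5 and 52.9. The log2 fold change with Ang II was 0.73 (95% interval -0.35 to 1.82) in IKKβ+/+ mice and -0.20 (95% interval -1.35 to 0.94) in IKKβ-/- mice. The difference between genotypes of -0.94 did not pass (95% interval -2.52 to 0.64, limma adjusted p = 0.641).

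Ccl8 was at 32.0, 48.3, 52.5, 79.5 and 80.3 normalized counts in Ang II-treated and at 57.9, 102, 105, 112 and 278 in saline-infused IKKβ+/+ mice. IKKβ-/- mice held 21.3, 52.4, 65.8, 72.0 and 516.7 with Ang II and 85.9, 103, 149 and 205 with saline. In IKKβ-/- mice 4 of 5 Ang II-treated mice lay below all saline-infused ones, and X2384 at 516.7 lay above all of them. The averaged log2 fold change was -0.87 (95% interval -1.75 to 0.00, limma adjusted p = 0.203). Without X2384 it was -1.21 (limma adjusted p = 0.0162), which passed. That mouse also had the highest summed level of 12 macrophage markers, 13444 normalized counts against 4566 to 10428 in the other mice, and the part of macrophages in its Ccl8 value was not tested.

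Ccl11 was at 39.6, 73.6, 95.5, 128 and 147 normalized counts with Ang II and at 132, 147, 167, 239 and 245 with saline in IKKβ+/+ mice. The 4 lowest Ang II-treated mice lay below every saline-infused mouse and the fifth lay within their range. The IKKβ-/- mice had 43.4, 98.4, 116, 194 and 210.3 with Ang II and 120.1, 124.5, 151 and 199.6 with saline. The log2 fold change in IKKβ+/+ mice was -1.02 (SE 0.373, 95% interval -1.80 to -0.25, limma adjusted p = 0.119), just outside the threshold. It passed when the fit held only the groups compared (limma adjusted p = 0.0754), with array quality weights (limma adjusted p = 0.0412) and with DESeq2 (adjusted p = 0.0753), and without X2356, X2359 or X2380. The averaged change was -0.68 (limma adjusted p = 0.124) and passed without X2356, X2359, X2384 or X2386. Among IKKβ-/- mice it was -0.34 (95% interval -1.16 to 0.49), and the difference of 0.69 between genotypes did not pass (limma adjusted p = 0.633).

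Fibroblast and smooth muscle markers moved in the same comparison of IKKβ+/+ mice. All 6 fibroblast markers had estimates below 0 and Lum, a matrix proteoglycan, was called lower with Ang II (log2 fold change -1.27, limma adjusted p = 0.0757). The summed level of the 6 was 77541 to 135535 normalized counts with Ang II and 108815 to 154348 with saline. Of 6 smooth muscle markers Tagln and Cnn1, of the contractile apparatus, were called higher (0.66 and 0.82, limma adjusted p = 0.0653 and 0.0302). Their summed level was 458946 to 633459 with Ang II and 331003 to 438667 with saline, without overlap. None of these 12 markers was called in IKKβ-/- mice. Their part in the values of Ccl11 and the other chemokines was not tested.

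Cxcl1 was at 10.9, 14.9, 31.8, 42.0 and 78.2 normalized counts in Ang II-treated and at 31.8, 34.6, 58.2, 67.4 and 110.1 in saline-infused IKKβ+/+ mice. Among IKKβ-/- mice the values were 2.38, 6.43, 21.1, 22.2 and 32.1 with Ang II and 17.4, 26.1, 27.0 and 33.7 with saline. The averaged log2 fold change with Ang II was -0.95 (95% interval -1.83 to -0.08, limma adjusted p = 0.162), which passed with array quality weights (limma adjusted p = 0.0814) and without X2350 (limma adjusted p = 0.0984). The groups overlapped in both genotypes, with the lowest value in X2383 and the highest in X2373. Its receptor Cxcr2, which marks neutrophils, was at 0 to 37.9 normalized counts and was not called in any comparison.

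Cxcl12 (ENSMUSG00000061353.11, chromosome 6, 117168535 to 117181367) had the smallest spread relative to its mean, with a coefficient of variation of 20.6% over the 19 mice. The IKKβ-/- mice had 2164, 2641, 2842, 3173 and 3724 normalized counts with Ang II and 1758, 1859, 2067 and 2508 with saline. Of the Ang II-treated mice 4 of 5 lay above every saline-infused mouse, and X2380 at 2164 lay within their range. In IKKβ+/+ mice it was at 2083, 2096, 2439, 2600.2 and 3246 with Ang II and at 2202, 2332, 2414, 2879.6 and 3146 with saline, ranges that nearly coincide.

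In IKKβ-/- mice the log2 fold change of Cxcl12 was 0.50 (SE 0.160, 95% interval 0.16 to 0.83, limma adjusted p = 0.102), just outside the threshold. It passed with array quality weights (limma adjusted p = 0.0759), TMM scaling (limma adjusted p = 0.0955) and DESeq2 (adjusted p = 0.0533), and without X2350, X2358, X2380, X2383 or X2409. In IKKβ+/+ mice it was -0.06 (95% interval -0.38 to 0.25). The difference of the Ang II effect between the genotypes was 0.56 (95% interval 0.10 to 1.02, unadjusted p = 0.0193 from limma across all genes), and the limma adjusted p was 0.368.

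Adipocyte markers moved in the same comparison. All 5 adipocyte markers tested, with Adipoq and Cfd among them, were called higher with Ang II in IKKβ-/- mice, at a median log2 fold change of 4.46. Their summed level over 6 genes was 1266 to 25375 normalized counts in Ang II-treated and 169 to 647 in saline-infused IKKβ-/- mice, groups that did not overlap. In IKKβ+/+ mice the sums were 949.7 to 5046 with Ang II and 185 to 8080 with saline. Their part in the Cxcl12 values was not tested.

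The receptors of Cxcl12 were also read. Cxcr4 was at 63.6 ± 46.4 (SD, n = 5) normalized counts in Ang II-treated and 30.7 ± 15.3 (SD, n = 5) in saline-infused IKKβ+/+ mice and was not called (log2 fold change 0.98, limma adjusted p = 0.174). Ackr3, which scavenges Cxcl12, was at 1093 ± 193 (SD, n = 5) and 1532 ± 240 (SD, n = 5) in these groups and was not called either (-0.49, limma adjusted p = 0.226). Within IKKβ-/- mice, where the estimate of Cxcl12 was larger, Cxcr4 was at 0.02 and Ackr3 at 0.27 on the log2 scale, again without a call (limma adjusted p = 0.988 and 0.608).

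No chemokine was called between the genotypes. With saline, 5.47% of all genes tested were called, and with Ang II 0.128%. With saline 7 of the 10 estimates were below 0, against 52.4% of all genes, and 1 chemokine reached an unadjusted p under 0.05, against 19.2% of all genes. With Ang II 5 of the 10 were below 0, against 50.9% of all genes, and 1 reached an unadjusted p under 0.05, against 14.3%. Averaged over the treatments 7.24% of all genes were called and none of the 10 chemokines, of which 2 reached an unadjusted p under 0.05 (22.1% of all genes did) and 7 lay below 0 (53.3% of all genes). The genotypes overlapped for all 10 with saline and with Ang II, while 8.76% and 1.54% of all genes tested were without overlap. Without X2385 and X2406 together only 19 genes were called with saline in place of 812, and no chemokine.

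The largest estimate between genotypes averaged over the treatments was that of Cxcl1, a known NF-κB target. It was at 2.38 to 33.7 normalized counts in the 9 IKKβ-/- mice, with a median of 22.2, and at 10.9 to 110.1 in the 10 IKKβ+/+ mice, with a median of 38.3. The averaged log2 fold change was -1.10 (SE 0.419, 95% interval -1.98 to -0.23, limma adjusted p = 0.136), and it passed with DESeq2 (-1.16, adjusted p = 0.0509). It was -1.07 with saline (limma adjusted p = 0.347) and -1.13 with Ang II (limma adjusted p = 0.378). With saline 3 of the 4 IKKβ-/- mice lay below every IKKβ+/+ mouse.

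Cx3cl1 was the other chemokine with an unadjusted p under 0.05 in that average, at a log2 fold change of -0.32 (95% interval -0.60 to -0.03, limma adjusted p = 0.181), which passed without X2380 (limma adjusted p = 0.0774). Cxcl12 reached it with saline, at -0.34 (95% interval -0.68 to -0.01, limma adjusted p = 0.250). For Ccl2 the averaged estimate was -0.88 (95% interval -1.90 to 0.13), for Ccl7 -0.40 (-1.19 to 0.39) and for Cxcl10 -0.23 (-1.51 to 1.06), so a fall of 1 log2 unit lies inside all 3 intervals. The interval was narrow for Cxcl12, -0.29 to 0.17, and for Cxcl16, -0.38 to 0.22.

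Some macrophage markers differed between genotypes with saline. Of 12 tested 11 had estimates below 0 in IKKβ-/- mice, against 52.4% of all genes, and Adgre1 and Cd68 were called lower there (log2 fold changes of -1.02 and -0.93, limma adjusted p = 0.0779 and 0.0674). Their summed level was 6093 to 8154 normalized counts in saline-infused IKKβ-/- mice and 7902 to 10428 in saline-infused IKKβ+/+ mice. With Ang II no macrophage marker was called, and the sums of 4566 to 13444 in IKKβ-/- mice spanned those of 6165 to 10329 in IKKβ+/+ mice. Estimates below 0 with saline were not particular to macrophages. All 6 endothelial, 6 fibroblast and 7 monocyte markers lay below 0 as well, at median log2 fold changes of -0.78, -0.49 and -0.72. None of these was called. All 6 smooth muscle markers lay above 0 with saline, at a median of 0.29, also without a call. The 10 most abundant genes took 12.3% to 43.9% of the reads in IKKβ-/- mice and 11.8% to 17.6% in IKKβ+/+ mice. The part of these cell types and of the most abundant genes in the genotype values was not tested.

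**Figure D4:**
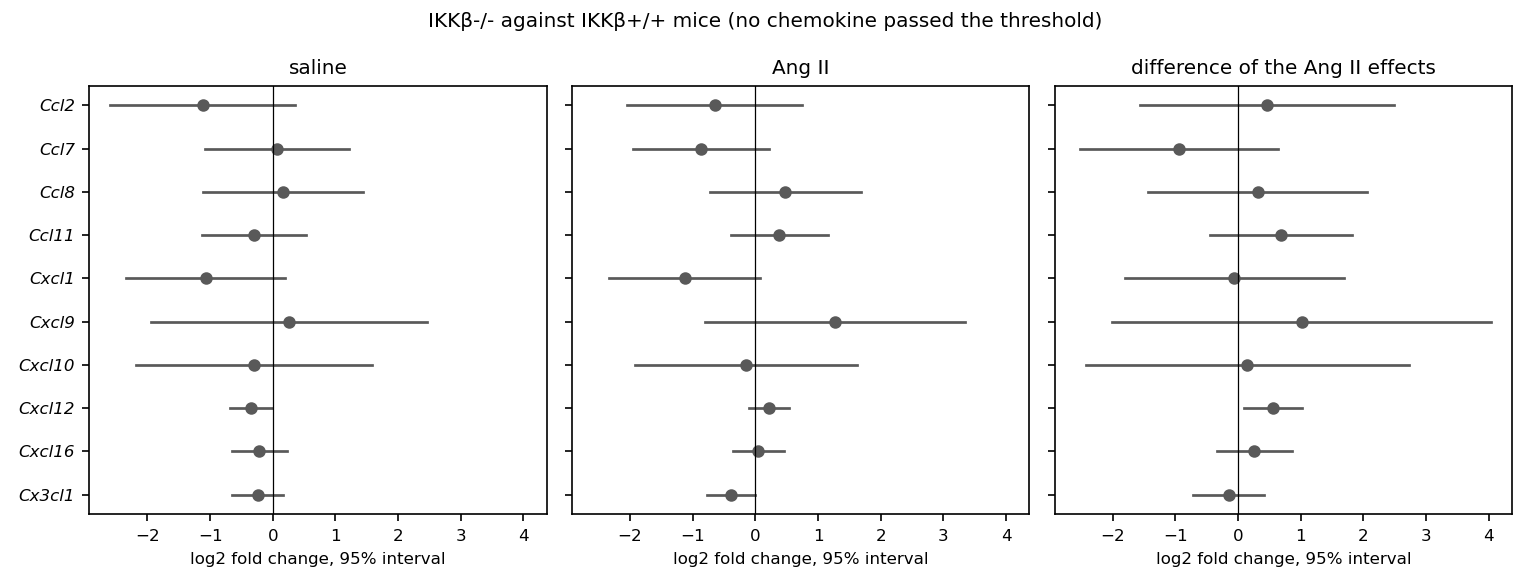
Log2 fold change of each chemokine between IKKβ-/- and IKKβ+/+ mice on the x axis with its 95% interval, with saline, with Ang II, and for the difference between the Ang II effects of the genotypes. No chemokine passed the threshold, and Cxcl1 lies at -1.07 with saline and at -1.13 with Ang II.

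The Ang II effect was not shown to differ between genotypes for any chemokine. No gene at all was called for this difference (0% of the genes tested with limma), while 1654 genes, 11.1%, reached an unadjusted p under 0.05, Cxcl12 among them as the only chemokine. The edgeR quasi-likelihood test called 3 genes and DESeq2 279, and no chemokine in either. Of the 10 estimates 3 were below 0, against 50.2% of all genes. The intervals were wide for most of them, as for Cxcl10 at 0.15 (95% interval -2.43 to 2.73) and Cxcl1 at -0.06 (-1.81 to 1.69).

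Beyond the 10, a list of 26 other chemokines held 20 in the matrix and 11 that could be tested. Of these 11, 3 rose with Ang II in IKKβ+/+ mice and none fell, against 8.66% of all genes called in either direction. Ccl6, which recruits macrophages, stood at 487 ± 100.6 (SD, n = 5) normalized counts with saline and at 1186 ± 431 (SD, n = 5) with Ang II (log2 fold change 1.23, limma adjusted p = 0.0302), Ccl9 of the same subfamily rose by 0.86 on the log2 scale (limma adjusted p = 0.0845), and Cxcl14 by 1.91 (limma adjusted p = 0.0966). Cxcl14 was rare with saline there, at 9.19 ± 4.62 (SD, n = 5) normalized counts, and uneven with Ang II, at 46.8 ± 46.0 (SD, n = 5). Among IKKβ-/- mice, with 5.29% of all genes called, 2 of the 11 rose, Ccl6 by 1.16 (limma adjusted p = 0.0615) and Cxcl13, a B cell attractant, by 4.40 (limma adjusted p = 0.0147). The rise of Cxcl13 started from 3.19 ± 3.06 (SD, n = 4) normalized counts with saline. In IKKβ+/+ mice Cxcl13 was at 2.10 (limma adjusted p = 0.168), and its difference between genotypes of 2.29 did not pass (limma adjusted p = 0.491). In the averaged effect, where 5.66% of all genes rose and 7.05% fell, 4 rose, Ccl6, Ccl9, Cxcl13 and Cxcl14, and Ccl12, a ligand of Ccr2, fell by 0.89 (limma adjusted p = 0.0542).

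Of 18 chemokine receptors 6 were tested and none was called with Ang II. Ccr2, the receptor of Ccl2 and Ccl7, was at 23.4 to 334 normalized counts over all mice with a log2 fold change averaged over the genotypes of 0.73 (limma adjusted p = 0.226), and Cx3cr1 was at 17.9 to 146 with -0.78 (limma adjusted p = 0.130). Ccr3 had no usable row in the matrix. Of the 5 atypical receptors Ackr2, which degrades inflammatory CC chemokines, rose with Ang II in IKKβ-/- mice by 1.86 on the log2 scale (limma adjusted p = 0.0147) and was lower with saline in IKKβ-/- than in IKKβ+/+ mice (-1.23, limma adjusted p = 0.0930).

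Of 16 genes of the NF-κB pathway and its inducers that were tested, 1 rose with Ang II in IKKβ+/+ mice, where 8.66% of all genes were called in either direction. It was Nfkbia, the inhibitor that IKKβ marks for degradation (0.89, limma adjusted p = 0.0107). None was called in IKKβ-/- mice (5.29% of all genes were), where Nfkbia was at 0.06 (limma adjusted p = 0.905). The difference of Nfkbia between genotypes did not pass (-0.83, limma adjusted p = 0.288). With saline, where 5.47% of all genes were called, 3 of the 16 were lower in IKKβ-/- mice, Ikbkb itself (-0.39, limma adjusted p = 0.0988), Tnfaip3, a feedback inhibitor of the pathway (-0.96, limma adjusted p = 0.0512), and Il1r1, the interleukin-1 receptor (-0.48, limma adjusted p = 0.0896). With Ang II none of the 16 was called between genotypes, and all 16 estimates were below 0 (50.9% of all genes were) at a median log2 fold change of -0.33. In the averaged Ang II effect 3 of the 16 rose and none fell, against 5.66% and 7.05% of all genes. They were Nfkbia (0.48, limma adjusted p = 0.0272), Il1r1 (0.30, limma adjusted p = 0.0703) and Myd88 (0.33, limma adjusted p = 0.0237).

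Within groups, some chemokines varied together from mouse to mouse. After subtracting group means on the log2 scale, 45 pairs were compared over the 19 mice by permutation within groups (100000 permutations, two-sided), and p-values were adjusted over the 45. Ccl2 and Ccl7 varied together (Pearson's r = 0.786, permutation p = 0.00023, adjusted p = 0.0104), with Spearman's rho at 0.672 (permutation p = 0.00634, adjusted p = 0.086). The r was 0.632 without the 2 mice farthest from the median of Ccl2. Ccl7 and Cxcl1 gave r = 0.725 (permutation p = 0.00262, adjusted p = 0.0393) and rho = 0.844 (adjusted permutation p = 0.0211), with r = 0.853 without 2 mice.

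Ccl11 and Cxcl12 gave r = 0.772 (permutation p = 0.00086, adjusted p = 0.0194) and rho = 0.758 (adjusted permutation p = 0.0245), with r = 0.701 without 2 mice. These 3 were the pairs of the 45 with an adjusted p under 0.05 for r. Cxcl9 and Cxcl10 had r = 0.593 (adjusted permutation p = 0.155), and Cxcl16 and Cx3cl1 had r = 0.678 (adjusted permutation p = 0.101). The mice share a depth and a cell makeup within each library, and the part of these in the correlations was not tested.

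**Figure D5:**
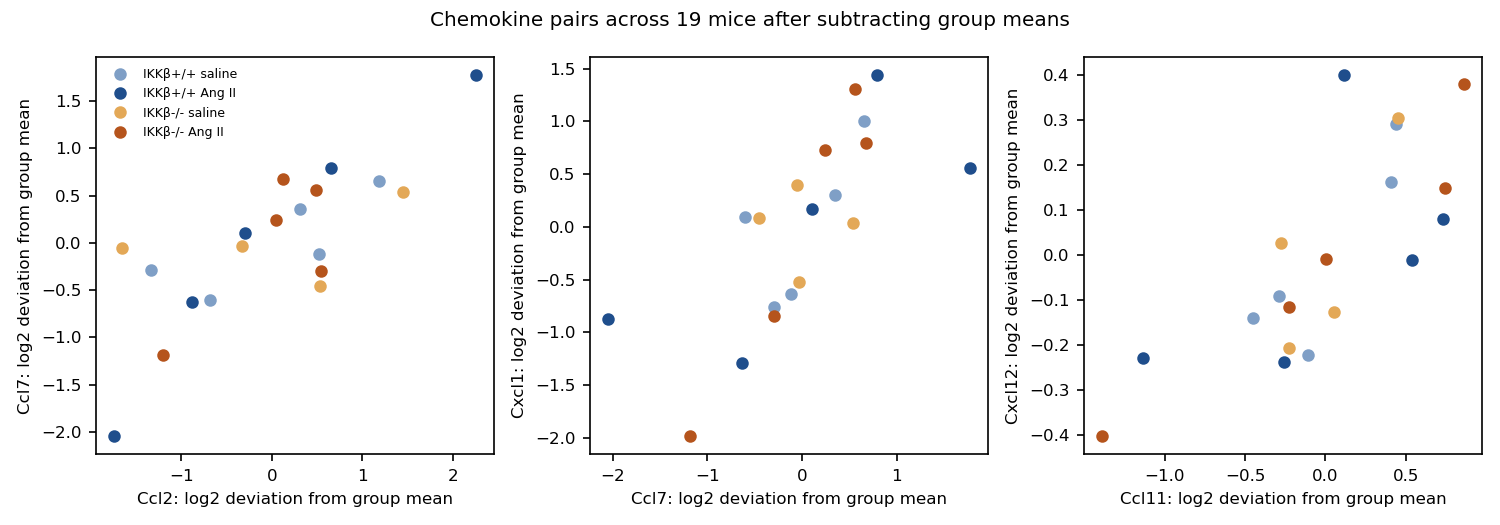
Deviation of each of the 19 mice from its group mean, in log2 units on both axes, for Ccl2 and Ccl7, for Ccl7 and Cxcl1, and for Ccl11 and Cxcl12, coloured by group. The points rise together in the 3 panels, with Pearson's r of 0.786, 0.725 and 0.772.

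The tested genes with the highest Pearson's r with each chemokine over the 19 mice, up to 3 a chemokine, are given as a description, without subtracting group means. For Cx3cl1 they were Cd93, Cenpe and Epas1 (r = 0.889, 0.865 and 0.849), of which Cd93 and Epas1 are known from endothelium, and for Cxcl16 they were F11r, B3gnt3 and Tie1 (0.860, 0.845 and 0.837). For Ccl11 they were Myo6, Mgl2 and Sqor (0.897, 0.891 and 0.887), for Ccl8 Nckap5, Retnla and Dtd1 (0.739, 0.720 and 0.703), for Ccl2 Socs3 and Wdr36 (0.822 and 0.804) and for Ccl7 Fbl, Gm7809 and Arf6 (0.812, 0.793 and 0.779). For Cxcl1 they were Apol9b, Vcam1, an adhesion molecule of activated endothelium, and Ccnb2 (0.847, 0.794 and 0.786). For Cxcl12 they were Pepd, Mmp19 and C6 (0.811, 0.7997 and 0.771), for Cxcl10 Enpp6, Car8 and Slc16a13 (0.856, 0.853 and 0.838) and for Cxcl9 Unc45b, Zfp991 and Tmem273 (0.775, 0.768 and 0.761). After subtracting group means, the r of these pairs lay between 0.612 and 0.928. The best of 14845 genes are high by selection, and these values are given without a test.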

How the data were processed

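Total RNA from the SRA of 19 mice was sequenced as poly(A) libraries. The authors used Trimmomatic 0.35 for trimming of single-end reads, STAR 2.7.1a for alignment to GRCm38, which also counted reads per Gencode gene, and the size factors of DESeq2 1.30.1 for scaling. The deposited signal is these normalized counts. All values (100%) were whole multiples of 1 read within a tolerance of 0.01, so reads were recovered. Depth was 11382573 to 19906694 reads per mouse, and floors of 3 reads cover counting error only.

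The 14845 of 20408 genes that reached 10 normalized counts in 4 mice or more were tested in R 4.3.3 with limma 3.58.1 (trend) on log2(normalized count + 1), with a mean per group over the 4 groups. The pseudocount of 1 pulls fold changes of rare genes toward 0. Tests were two-sided with Benjamini-Hochberg adjustment, and the threshold was a fold change above 1.2 together with an adjusted p under 0.1. Alternatives were a pseudocount of 4, no filter, only the groups compared, array quality weights, TMM, a fold change above 1.5, an adjusted p under 0.05, each mouse left out, and edgeR 4.0.16 and DESeq2 1.42.0 run on recovered reads. Fits were tested on simulated data for Ang II in IKKβ+/+ mice, with 200 genes changed. Called were 140 of them and 11 unchanged genes with limma, 144 and 13 with edgeR, and 154 and 35 with DESeq2. Libraries of a group differed by more than sampling noise in all 36 pairs compared.

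All 10 chemokines were named. From each pathway list the genes past the threshold were named, at most 4 a comparison, with the receptors of the chemokines and the 3 genes of the highest r with each. Markers of other cell types were named where they moved with a result. Some genes that meet these rules are not reported here. The chemokines and lists were chosen with earlier results of these data known. Nothing states whether same-group libraries came from separate litters or days.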

Additional observations from a re-analysis of the deposited data

Results flagged for a closer look

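In 3 of the 40 groups of values (10 chemokines in 4 groups of mice, 7.5%) a single mouse lay farther from the others of its group than Dixon's 95% criterion allows. For normally distributed values the criterion flags about 1 in 20 such groups. The counts were not put on a log scale and all 3 flagged values were the highest of their group, so that rate may not hold here. Ccl2 was at 235 normalized counts in the Ang II-treated IKKβ+/+ mouse X2358, with the other 4 mice of the group at 13.9 to 77.1. Ccl8 was at 278 in the saline-infused IKKβ+/+ mouse X2378, with the other 4 at 57.9 to 112. Ccl8 was also at 516.7 in the Ang II-treated IKKβ-/- mouse X2384, with the other 4 at 21.3 to 72.0. Without X2358 the log2 fold change of Ccl2 with Ang II in IKKβ+/+ mice was 0.24 in place of 0.80. Without X2378 that of Ccl8 in IKKβ+/+ mice was -0.71 in place of -1.03, and without X2384 that in IKKβ-/- mice was -1.39 in place of -0.72. The cause of these 3 values was not tested.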

How the results depend on the processing

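The number of chemokines called depended on the settings. For Ang II against saline in IKKβ+/+ mice it was 0 in the fit reported, 2 (Ccl11 and Cxcl10) with only the groups compared, and 1 (Ccl11) with array quality weights and with DESeq2. Leaving out single mice gave 0 to 1. In IKKβ-/- mice it was 0, and 1 (Cxcl12) with array quality weights, TMM scaling and DESeq2, with 0 to 2 over single mice left out. For the averaged Ang II effect it was 2, and 1 (Cxcl10) without the filter, with edgeR, at an adjusted p under 0.05, at a fold change above 1.5, and without X2385 and X2406 together, a setting chosen after seeing the data. It was 3 with array quality weights, which added a fall of Cxcl1, and with DESeq2, which added a rise of Ccl2. Single mice left out gave 0 to 3, with 0 without X2401. For the averaged genotype effect it was 0, and 1 (Cxcl1) with DESeq2, with 0 to 1 over single mice. It stayed at 0 under every alternative run for genotype with saline, genotype with Ang II and the difference between the Ang II effects. The causes of these changes were not tested. On simulated data DESeq2 called more unchanged genes than limma did, 35 against 11.

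Over 530 values of single chemokines under settings other than leaving out 1 mouse, 495 kept their direction and their side of the threshold, 3 lost the call, 10 gained it and 22 that were never called changed sign. Over 1330 values with 1 mouse left out, these numbers were 1245, 15, 17 and 53. No called value changed sign. Depth limited Cxcl9 and Cxcl10, with 184 and 189 reads in all mice. No paired analysis was possible because the groups share no mouse number.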
